A study of Anopheles gambiae with 16 samples.

Results

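A group of 76 probe sets of the malaria mosquito Anopheles gambiae gave higher signals in circulating hemocytes and in heads of young females than in carcasses, and gave hemocyte and head signals close to each other. They were drawn from the 16884 probe sets whose IDs begin with Ag., read here as the mosquito's own, of 22761 on the array, and make up 0.45% of them. Members were chosen by measured values, the group means of log2(intensity + 16) on 12 arrays. The hemocyte and head means each had to lie at least 1 log2 unit (2-fold) above the mean of carcasses labelled with 2 rounds of amplification, and within 1 unit of each other. Differences between those 3 groups are therefore given as a description, with no test. A further 4 carcass arrays, labelled with 1 round, took no part in the choice and are read beside them.

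All arrays are of G3 strain females that had eclosed 1 to 2 days before and are called naive in the design, with 4 biological replicates in each of 4 groups. Hemocytes (80 ng of total RNA, 2 rounds) were drawn in a hemolymph drop from the clipped proboscis straight into column lysis buffer. Their labels conflict, giving pools of 1000 females in one entry and of 500 females, called infected, in another. Heads (40 females a pool, 80 ng, 2 rounds) and carcasses (20 females a pool, 80 ng with 2 rounds or 1000 ng with 1 round) were extracted with Trizol before the column. Carcass here is what was left of the body once hemolymph had been taken and the head cut off. Head replicate 4 carries a source entry that speaks of carcasses of 20 females, against its title, description, tissue entry and collection note (40 females), and was kept as a head array. Tissue cannot be told apart from the way each tissue was collected or, for hemocytes, from the extraction method.

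Hemocytes are the blood cells of insects, which engulf microbes and take part in melanization and clotting. The head holds the brain, eyes, antennae and mouthparts together with muscle, fat body and hemolymph, whereas the carcass holds most of the fat body, the flight muscle, the gut and the ovaries. In labelling with 2 rounds, RNA made in the first round is copied again from random primers, which shortens the products and leaves them weighted toward the 3' end of each transcript.

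The files do not pair the probe set IDs with genes, and 0 of the 76 member IDs were found in a RefSeq gene table of the species with 15165 genes. No member can thus be given a gene name or a role, and tissue labels could not be checked against marker genes. The mean intensity of an array lay between 138 and 217. Background, set for each array at the 95th percentile of the probe sets whose IDs begin with Pf. (read as Plasmodium probe sets), lay between 8.83 and 15.28 intensity units. The 3' over 5' intensity ratio of the Gapdh control, a measure of how evenly a transcript was copied, was 46.8 ± 10.7 in hemocytes, 72.9 ± 28.1 in heads, 32 ± 6.23 in two-round carcasses and 1.62 ± 0.223 in one-round carcasses (SD, n = 4 each). For actin it was 12.8 ± 1.23, 20.7 ± 3.55, 25.4 ± 3.3 and 2.63 ± 0.321 in the same groups. The part of this unevenness in the results below was not tested. One-round and two-round carcass arrays of the same replicate number deviated together (correlations of 0.24 to 0.54 over 13061 probe sets), so the one-round arrays are not a separate sample of carcasses.

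The members spanned a wide range of brightness, and most of them were lower in carcasses rather than lacking there. Their mean intensity ran from 31.2 to 4660 in hemocytes with a median of 324, from 33.4 to 4920 in heads with a median of 270, and from 3.98 to 1380 in two-round carcasses with a median of 87. In one-round carcasses it ran from 2.44 to 1750 with a median of 59.9. Above background on all 4 arrays were 75 members in hemocytes, 73 in heads, 58 in two-round carcasses and 60 in one-round carcasses, where 47.8%, 50.4%, 48.7% and 53.5% of all mosquito probe sets were in these groups. Only 2 members in two-round and 3 in one-round carcasses lay below background on every array, where 3976 and 3237 of the 16884 mosquito probe sets did. Of the 2 in two-round carcasses, Ag.3L.397.0_UTR_at had a fold of at least 2.42 in hemocytes and 2.35 in heads. For Ag.2R.2.0_CDS_at the values were 1.94 and 1.32, which are no firm bounds. Only 3 of its hemocyte and 2 of its head arrays were above background, and its heads measured 130, 14.1, 4.46 and 14.3. In whole tissues, fewer cells of a type and less RNA per cell cannot be told apart.

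**Figure D1:**
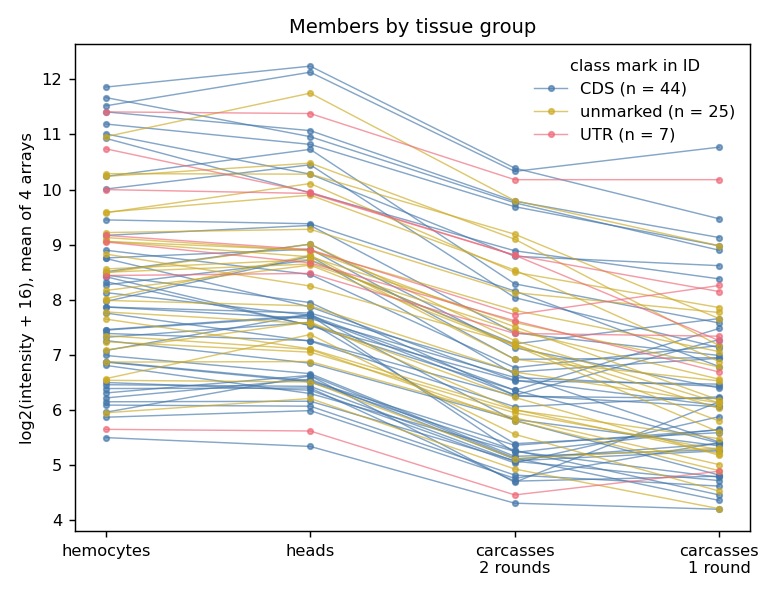
Mean log2(intensity + 16) over 4 arrays of each of the 76 members in hemocytes, heads, two-round carcasses and one-round carcasses, with 1 line per member coloured by the class mark in its ID (44 CDS, 25 unmarked, 7 UTR). Hemocyte and head points lie within 1 unit of each other by choice. Between two-round and one-round carcasses 54 lines go down (71.1%, against 65.1% of all mosquito probe sets) and 22 go up.

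The excess over two-round carcasses was mostly modest. The smaller of the hemocyte and head differences ran from 1.01 to 2.49 log2 units with a median of 1.17, against a median of -0.10 over all mosquito probe sets. It lay under 1.5 in 67 members, between 1.5 and 2 in 8, and above 2 in 1. Hemocyte means were above head means in 42 members and below them in 34 (8358 and 8526 of all mosquito probe sets), with a median difference of 0.03. The list was thus crowded against its limits over carcasses. The member nearest the hemocyte limit had a difference of 1.008 and the nearest probe set outside had 0.999, while at the head limit these values were 1.007 and 0.991. For the distance between hemocytes and heads, limited to 1, they were 0.990 inside and 1.115 outside. The pseudocount set how long the list was, with 444 probe sets at a pseudocount of 1 and 29 at 64 in place of 16. The 369 that a pseudocount of 1 added had a median intensity of 21.9 in heads and 8.08 in two-round carcasses, which is below the background of every array.

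All 8 hemocyte and head arrays lay above all 4 two-round carcass arrays in 65 members (85.5%, where 4.29% of all mosquito probe sets met this). The rule used these arrays, and nothing is read from the count.

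Ag.2R.1686.0_CDS_at, whose ID places it on arm 2R, had the largest smaller difference. It measured 316, 131, 451 and 254 intensity units in hemocytes, 335, 188, 162 and 141 in heads, 20.9, 36.3, 26.2 and 8.66 in two-round carcasses and 17.7, 46, 39.4 and 38.9 in one-round carcasses. Every hemocyte and head array was above every carcass array, and 1 two-round carcass array was below background. The log2 difference over one-round carcasses was 2.48 ± 0.34 for hemocytes (SE, limma adjusted p = 1.4e-05) and 2.07 ± 0.34 for heads (limma adjusted p = 0.00014).

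The brightest members by the lower of their hemocyte and head means were Ag.2R.721.0_CDS_s_at and Ag.X.4.0_CDS_at, on arm 2R and the X chromosome by their IDs. The probe set on 2R measured 2540, 3210, 4010 and 5740 in hemocytes, 6320, 5220, 4240 and 3900 in heads, 2040, 1440, 1060 and 978 in two-round carcasses and 913, 632, 738 and 539 in one-round carcasses. Its hemocyte and head arrays all lay above its carcass arrays, by 2.39 ± 0.27 and 2.78 ± 0.27 log2 units over one-round carcasses (SE, limma adjusted p = 1.8e-06 and 6.2e-07). Ag.X.4.0_CDS_at measured 3070, 3760, 2730 and 2310 in hemocytes and 2920, 5650, 4790 and 5100 in heads. In carcasses it measured 1210, 1360, 1340 and 1170 after 2 rounds and 1730, 1480, 2140 and 1630 after 1 round, so its hemocyte and head arrays also lay above its carcass arrays. Over one-round carcasses the difference was 1.36 ± 0.20 in heads (SE, limma adjusted p = 4.4e-05), which was called, and 0.75 ± 0.20 in hemocytes (limma adjusted p = 0.0054), which is under 2-fold and was 0.34 (adjusted p = 0.15) with quantile normalization.

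**Figure D2:**
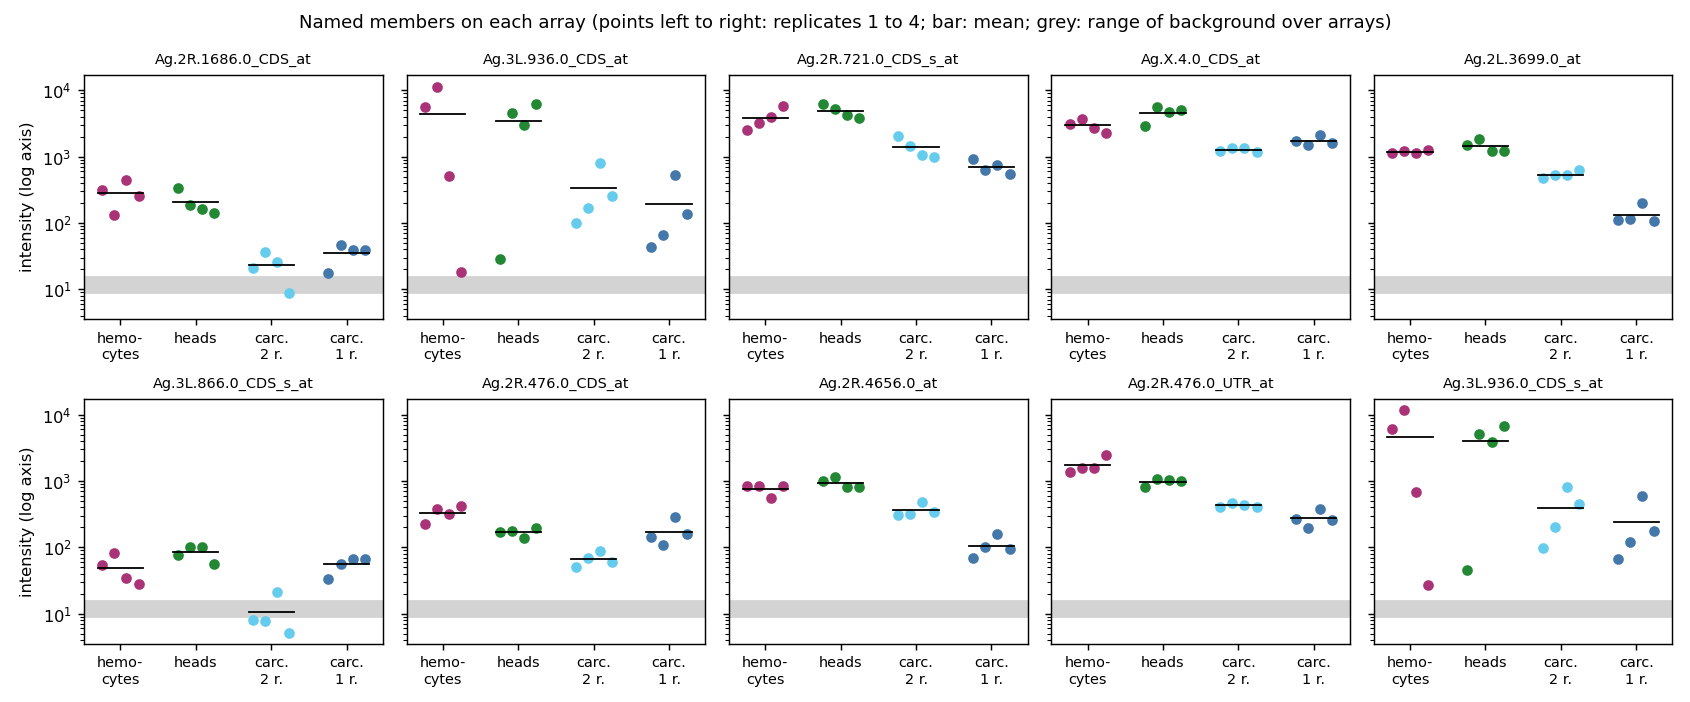
Intensity on each of the 16 arrays (log axis) of the 10 members named in the text, with replicates 1 to 4 from left to right in each group, the group mean as a bar and the range of background over arrays in grey. Ag.2R.1686.0_CDS_at keeps all hemocyte and head arrays above all carcass arrays, while the Ag.3L.936 probe sets run from 18.2 to 11800 within the hemocyte group alone.

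Read against one-round carcasses, most of the members kept their excess. The smaller of the hemocyte and head differences was at least 1 log2 unit in 63 of 76 members (82.9%), against 7.42% of all mosquito probe sets, and at least 2 units in 25 (32.9% against 0.965%). Its median was 1.78 over the members and -0.01 over all, with a range of -0.18 to 3.06 among members. Hemocytes over one-round carcasses were called higher (limma adjusted p under 0.05 and at least 2-fold) in 62 members, where 18.8% of all probe sets were called, and heads over one-round carcasses in 63, where 13.3% were. Both calls held in 60 members, against 7.33% of all. In 63 members, all 8 hemocyte and head arrays lay above all 4 one-round arrays, against 13.6% of all. The hemocyte and head arrays behind these counts are the ones that chose the members, and the carcass arrays are paired with those of the rule, so the counts describe the list and are not independent support for it. The labelling also differs between the groups compared here, as the control ratios above show. With median centring the median difference of all probe sets was -0.01 for heads over one-round carcasses and 0.00 for two-round over one-round carcasses, in place of 0.16 and 0.12 as deposited. The members' medians for these were then 1.69 and 0.40, in place of 1.85 and 0.52. Between hemocytes and heads, centring put the median of all probe sets at 0.15 and that of the members at 0.18.

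Of the 13 members below 1 log2 unit over one-round carcasses, 11 were marked CDS (84.6%), 2 were UTR and 0 were unmarked. All mosquito probe sets were 83.3% CDS, whereas the members as a whole were 57.9% CDS and 32.9% unmarked. Ag.3L.866.0_CDS_s_at, the lowest, measured 53.9, 81.6, 34.3 and 28.2 in hemocytes, 77.6, 102, 102 and 56.6 in heads, 8.06, 7.61, 21.3 and 5.17 in two-round carcasses and 33.4, 57, 67 and 67.7 in one-round carcasses. Its two-round carcass values were below background on 3 of 4 arrays, and its one-round values overlapped both hemocytes and heads. The differences over one-round carcasses were -0.18 ± 0.26 in hemocytes and 0.48 ± 0.26 in heads (SE, limma adjusted p = 0.64 and 0.18). Ag.2R.476.0_CDS_at measured 224, 373, 315 and 424 in hemocytes, 171, 175, 139 and 197 in heads, 50, 70, 88.8 and 60.1 in two-round carcasses and 141, 107, 285 and 157 in one-round carcasses. Head arrays overlapped the one-round carcass arrays (difference 0.06 ± 0.25, limma adjusted p = 0.89). Its hemocyte difference of 0.94 ± 0.25 (limma adjusted p = 0.0055) fell short of 2-fold, and was 1.11 without hemocyte replicate 1 and 1.19 without one-round carcass replicate 3, where it was called (adjusted p = 0.0021 and 0.00027). With a pseudocount of 1 it was 1.01 and called (adjusted p = 0.014), with 64 it was 0.78 (adjusted p = 0.0052), and with quantile normalization it was 0.19 (adjusted p = 0.5).

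**Figure D3:**
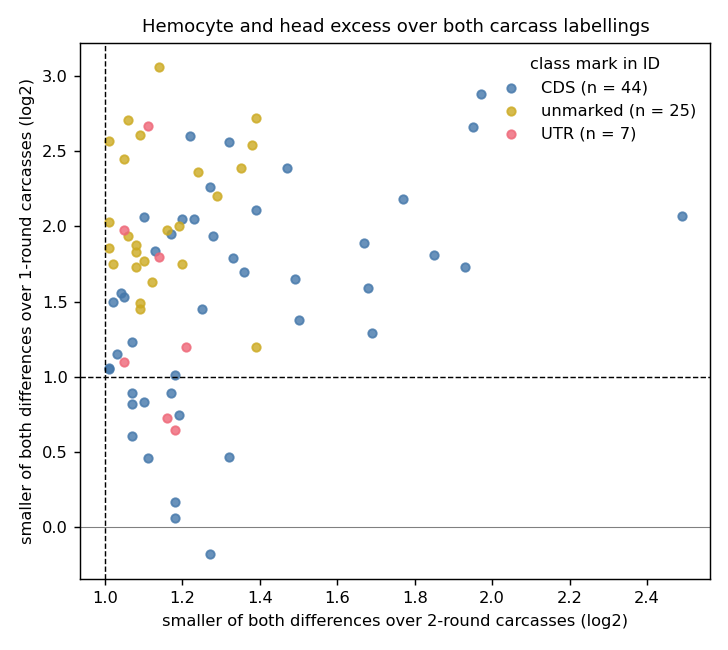
For each of the 76 members, the smaller of its hemocyte and head differences over two-round carcasses (horizontal axis, log2 units, used to choose the members) against the same over one-round carcasses (vertical axis, not used), with dashed lines at 1 and colours by class mark. All 25 unmarked members lie above the horizontal line, and the 13 points below it are 11 CDS and 2 UTR members.

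Between the carcass labellings, two-round values were higher than one-round values in 54 members (71.1%, against 65.1% of all mosquito probe sets) and lower in 22. They were higher in 4 of 4 pairs of arrays in 39 members (51.3%, against 29.4% of all probe sets) and lower in 4 of 4 pairs in 9 (11.8% against 11.4%). The difference of 2 rounds over 1 round was called higher in 13 members (17.1%), where 7.29% of all probe sets were, and lower in 2 (2.63%), where 2.61% were (limma). With quantile normalization the members split 9 higher and 4 lower, and all probe sets 577 and 848 in place of 1230 and 440. Without one-round carcass replicate 3 a single member, Ag.3L.866.0_CDS_s_at, was called lower. The two-round carcass arrays were used by the rule, which took probe sets that are low there.

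The largest rises after 2 rounds were at unmarked probe sets. The members in this paragraph were picked from the list by the size of the differences given. Their p-values are thus a description and no independent test. Ag.2L.3699.0_at measured 1130, 1240, 1140 and 1260 in hemocytes, 1480, 1830, 1230 and 1200 in heads, 469, 521, 523 and 625 in two-round carcasses and 111, 115, 198 and 107 in one-round carcasses. The 4 groups fell into 3 separate levels, with hemocytes and heads on top, and two-round carcasses lay 1.92 ± 0.18 log2 units above one-round ones (SE, limma adjusted p = 3.2e-06). It also had the largest smaller difference over one-round carcasses, 3.06 ± 0.18 for hemocytes, beside 3.31 ± 0.18 for heads (limma adjusted p = 1.4e-09 and 1e-09). Ag.2R.4656.0_at measured 833, 849, 548 and 840 in hemocytes, 1000, 1160, 808 and 821 in heads, 310, 315, 475 and 341 in two-round carcasses and 69, 102, 157 and 95 in one-round carcasses. It had the same 3 levels with no overlap between them, and 2 rounds stood 1.65 ± 0.22 above 1 round (SE, limma adjusted p = 5.7e-05). The largest falls after 2 rounds were at CDS probe sets, -1.45 ± 0.26 for Ag.3L.866.0_CDS_s_at and -1.12 ± 0.25 for Ag.2R.476.0_CDS_at (SE, limma adjusted p = 0.00084 and 0.0038). Both were under 2-fold with a pseudocount of 64, at -0.69 and -0.81, and the fall of Ag.2R.476.0_CDS_at was -0.87 without one-round carcass replicate 3.

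By a reading of the IDs that no source used here records, each also carries an arm and a mark of CDS (coding sequence), of UTR (untranslated region) or of neither. The members held fewer CDS and more unmarked probe sets than the array as a whole. Marked CDS were 44 members (57.9%, against 83.3% of all mosquito probe sets), unmarked were 25 (32.9% against 12%) and marked UTR were 7 (9.21% against 4.68%). Among probe sets above background on at least 4 arrays, as all 76 members were, the shares were 80.2% CDS, 13.9% unmarked and 5.93% UTR. No set test was run on these shares. The 444 probe sets found at a pseudocount of 1 were 81.3% CDS and 14.9% unmarked, whereas the 29 found at 64 were 62.1% CDS and 24.1% unmarked. The same rule with the tissues exchanged found 130 probe sets shared by hemocytes and carcasses over heads, of which 13.8% were unmarked, and 598 shared by heads and carcasses over hemocytes, of which 14% were unmarked. With one-round in place of two-round carcasses the rule found 985 probe sets, of which 56.5% were CDS, 30.4% unmarked and 13.1% UTR, on the same hemocyte and head arrays.

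The class marks also parted the members by how the 2 carcass labellings compared. Unmarked members stood a median of 0.85 log2 units higher after 2 rounds than after 1 round, against 0.32 for all unmarked probe sets, and 10 of the 25 were at least 1 unit higher (40% against 20.3% of all unmarked). CDS members had a median of 0.16, against 0.09 for all CDS probe sets, with 2 of 44 at least 1 unit higher (4.55% against 4.83% of all CDS) and 3 at least 1 unit lower. The 7 UTR members had a median of 0.05, against 0.53 for all UTR probe sets, and 1 was at least 1 unit higher (14.3% against 24.3% of all UTR). All 25 unmarked members, 33 of 44 CDS members and 5 of 7 UTR members were at least 1 unit above one-round carcasses in both tissues, where 19.9%, 4.89% and 20.4% of all probe sets of these classes were. Against two-round carcasses the unmarked members had the smaller excess, with a median of 1.09 beside 1.23 for CDS and 1.14 for UTR members.

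**Figure D4:**
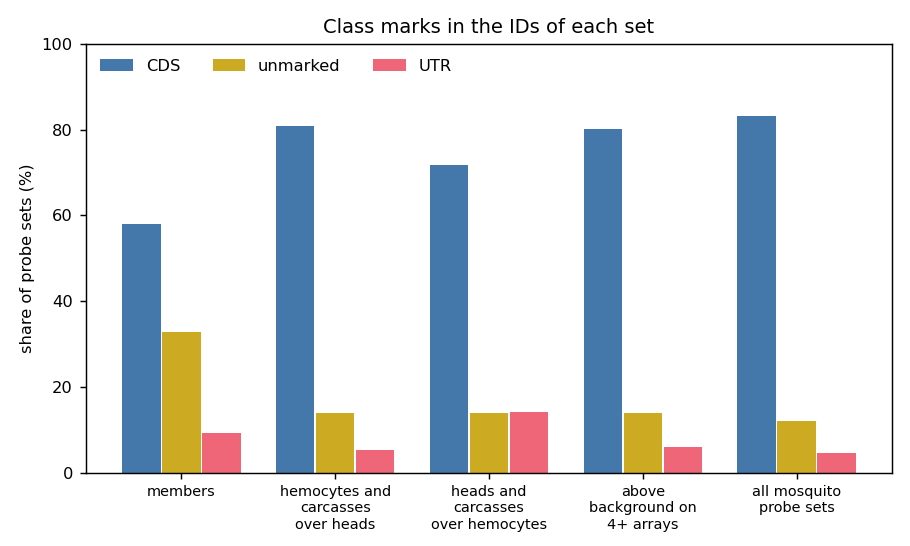
Share of probe sets (percent) with the mark CDS, no mark or the mark UTR among the 76 members, among the 130 and 598 probe sets that the same rule finds with the tissues exchanged, among probe sets above background on at least 4 arrays and among all 16884 mosquito probe sets. Unmarked probe sets make up 32.9% of the members and 12% to 14% of the other sets.

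By the arm in the ID, 28 members (36.8%) were on 2R and 17 (22.4%) on 3L, where 26.3% and 14.8% of all mosquito probe sets are. The arms 2L and 3R held 9 members each (11.8% each, against 20.3% and 18.8%), the X chromosome 8 (10.5% against 8.31%), and 5 carried no arm (6.58% against 11.5%). By the ending of the ID, 11 members (14.5%, against 8.14% of all) end in _s_at, which the array maker gives to probe sets whose probes fit several transcripts, also of different genes, so that signal of related copies cannot be told apart there. Among these were Ag.2R.721.0_CDS_s_at, Ag.3L.866.0_CDS_s_at and Ag.3L.936.0_CDS_s_at. A further 10 (13.2% against 19.7%) end in _a_at, given to probe sets that fit several transcripts of 1 gene.

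Probe sets whose IDs share the arm and first number of a member (a stem) existed for 19 members on 17 stems, the other 57 members being alone on theirs. On 2 stems 2 probe sets were members. The 21 neighbours that were no members had a median smaller difference of 0.11 over two-round carcasses, beside -0.10 over all mosquito probe sets. It ranged from -1.73 to 0.90, and both differences were above 0 in 13 of the neighbours. Over one-round carcasses both differences were at least 1 in 6 of the 21, where 7.42% of all mosquito probe sets reached this. Whether such a stem is 1 gene is not stated in the sources used here. One stem, picked after its values were seen, shows how far neighbours can lie apart. Ag.2R.1605.0_UTR_a_at, a member, had log2 levels of 9.05 in hemocytes, 8.67 in heads and 7.62 in two-round carcasses, whereas Ag.2R.1605.0_CDS_s_at stood at 6.04 in hemocytes, 10.01 in heads and 7.77 in two-round carcasses.

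On the stem Ag.2R.476 the CDS and the UTR probe set were both members and differed in how they read the carcass labellings. Ag.2R.476.0_UTR_at measured 1370, 1560, 1550 and 2450 in hemocytes, 818, 1080, 1020 and 992 in heads, 409, 474, 437 and 410 in two-round carcasses and 272, 196, 375 and 256 in one-round carcasses. Its hemocyte and head arrays lay above all carcass arrays, by 2.59 ± 0.19 and 1.80 ± 0.19 log2 units over one-round carcasses (SE, limma adjusted p = 2e-08 and 1.8e-06). Two-round values were higher than one-round ones at the UTR probe set (0.66 ± 0.19, limma adjusted p = 0.022, under 2-fold) and lower at the CDS probe set given above (-1.12 ± 0.25). The UTR difference was 0.12 (adjusted p = 0.71) with quantile normalization and 0.69 (adjusted p = 0.062) with a pseudocount of 1.

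The other stem with 2 members, Ag.3L.936, had the widest spread between replicate arrays. Ag.3L.936.0_CDS_at measured 5660, 11300, 503 and 18.2 in hemocytes, 28.2, 4490, 3030 and 6290 in heads, 101, 166, 801 and 259 in two-round carcasses and 43.2, 65, 522 and 135 in one-round carcasses. Hemocyte replicate 4 and head replicate 1 were below every carcass array, and the groups overlapped. Over one-round carcasses the differences were 2.88 ± 1.68 in hemocytes and 3.32 ± 1.68 in heads (SE, limma adjusted p = 0.19 and 0.15), and neither was called. Without hemocyte replicate 4 the hemocyte difference was 4.52 (adjusted p = 0.024), and without head replicate 1 the head difference was 4.98 (adjusted p = 0.015). Ag.3L.936.0_CDS_s_at measured 6080, 11800, 681 and 26.9 in hemocytes and 45.2, 5160, 3920 and 6690 in heads. In carcasses it measured 97.1, 204, 826 and 446 after 2 rounds and 67.1, 119, 600 and 178 after 1 round. It had the same high and low arrays, and its differences over one-round carcasses were 2.66 ± 1.61 in hemocytes and 3.15 ± 1.61 in heads (SE, limma adjusted p = 0.21 and 0.15). Without hemocyte replicate 4 the first was 4.27 (adjusted p = 0.024), and without head replicate 1 the second was 4.75 (adjusted p = 0.016).

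Such wide spreads were found in few members, though more often than over all mosquito probe sets. The median SD of log2(intensity + 16) over 4 arrays was 0.39 in hemocytes, 0.26 in heads, 0.30 in two-round carcasses and 0.39 in one-round carcasses over the members, and 0.27, 0.28, 0.26 and 0.28 over all mosquito probe sets. In 8 members (10.5%, against 3.78% of all) the highest and lowest array of some group were over 2 log2 units apart. They were over 4 units apart in 3 of the 76 members and in 86 of all 16884 mosquito probe sets. The choice of members leaned on single arrays. The rule found 65 to 92 probe sets when 1 of its 12 arrays was left out, and 62 to 74 of the 76 members were found each time. In all 12 of these runs 36 members were found again, while 40 were lost in at least 1. Most were lost without hemocyte replicate 4 or without two-round carcass replicate 3, 14 each time, and fewest without head replicate 3, which cost 2. Without head replicate 4, whose source entry speaks of carcasses, 83 probe sets were found and 70 of the members were among them.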

How the data were processed

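The authors deposited linear intensity values, 1 for each probe set on each array. They used GCOS 1.4, per the submitters' processing notes; how probes were summarised, corrected for background and scaled is not given in the sources used here. The values were used with no further normalization. The members and lists were chosen with earlier results of these data known.

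For the 16884 Ag. probe sets, log2(intensity + 16) was modelled on the 4 groups without a replicate block, leaving 12 residual degrees of freedom, by lmFit and eBayes of limma 3.58.1 (R 4.3.3). P-values were adjusted by Benjamini-Hochberg over all of them. Calls needed an adjusted p under 0.05 and a 2-fold difference. Fold changes with the pseudocount understate the change of dim probe sets. The procedure was tested on simulated data. For a probe set below background on every array of a group, folds are taken against the higher of background and measured value. They are bounds where the brighter group is above background on every array. The number of arrays, 4 a group, limits the precision.

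Named members are the 2 with the largest smaller difference over two-round carcasses, the 2 brightest by the lower tissue mean, the 2 highest and 2 lowest over one-round carcasses, the 2 largest rises and falls between labellings, and the stems with most members. Those next to a limit are given by value alone. As the named members were picked from these same data, their p-values are a description. Replicate numbers paired only the carcass labellings (correlations of deviations of 0.24, 0.30, 0.42 and 0.54), while other pairs of groups ran from -0.15 to 0.20. Alternatives were other pseudocounts, median centring, quantile normalization, a filter on dim probe sets, each array left out, a replicate block, other rule limits and another background.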

Additional observations from a re-analysis of the deposited data

Results flagged for a closer look

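Of 44 groups of 4 arrays looked at, 5 had 1 array far from the other 3 by Dixon's criterion, which chance meets in about 1 in 20 groups. Over all mosquito probe sets it was met in 7.49% in hemocytes, 8.21% in heads, 8.01% in two-round and 8.85% in one-round carcasses. Of the 5, 2 were the same head array at 2 probe sets that correlated at 1.00 over the 16 arrays. In heads, replicate 1 stood apart at both Ag.3L.936 probe sets, with 28.2 intensity units at Ag.3L.936.0_CDS_at against 3030 to 6290 on the other head arrays, and 45.2 at Ag.3L.936.0_CDS_s_at against 3920 to 6690. In one-round carcasses, replicate 3 gave 198 at Ag.2L.3699.0_at, where the others gave 107 to 115. That array was brighter by its medians, with a median log2(intensity + 16) over all mosquito probe sets of 5.38 against 5.13 to 5.14 on the others. Its median intensity over the members was 84.2 against 47.1 to 60.9. It was not brighter at every member, and gave 111 at Ag.2L.552.1_CDS_a_at, where the others gave 379 to 552. In hemocytes, replicate 3 gave 548 at Ag.2R.4656.0_at, where the others gave 833 to 849. The median log2(intensity + 16) over the 76 members was 7.86 on head replicate 3 and 8.16 to 8.22 on the other head arrays.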

How the results depend on the processing

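Counts are of members called (limma) unless stated. Over the 76 members, a pseudocount of 1 gave 24 higher and 5 lower in two-round over one-round carcasses, and 64 gave 5 and 0 with a median smaller difference over one-round carcasses of 1.21. Quantile normalization gave 4 lower. Hemocytes over one-round carcasses were called higher in 65 of the 76 with a pseudocount of 1, 51 with 64 and 52 with quantile normalization, in place of 62. For heads the counts were 65, 47 and 53, in place of 63, and 57 with median centring. Both differences were at least 1 unit in 67, 46 and 53, in place of 63, and in 58 with median centring. Over all mosquito probe sets these settings called 4255, 2119 and 2199 for hemocytes and 3423, 1243 and 1590 for heads. With members found again, the pseudocount of 1 (444 members, 81.3% CDS and 14.9% unmarked) gave 215 for hemocytes and 194 for heads over one-round carcasses, 45 higher and 41 lower between labellings, 237 at least 1 unit above one-round carcasses and a median of 1.13. The pseudocount of 64 (29 members) gave 24, 25, 4, 0 and 26 for these counts, and quantile normalization (56 members) 38, 39, 3, 4 and 40. Median centring (86 members) gave 20 higher and 1 lower between labellings. A limit of 1.5 over carcasses left 9 members. The cause of these shifts was not tested. Leaving out 1 array at a time gave 60 to 64 members for hemocytes and 59 to 65 for heads over one-round carcasses, 11 to 17 higher and 1 to 3 lower between labellings, 58 to 64 at least 1 unit above one-round carcasses, a median of 1.70 to 1.88, and 65 to 92 members found. With the replicate number as a block the counts were 62 and 63 for hemocytes and heads, and 13 higher and 2 lower for the paired carcass labellings, the numbers found without it, and it changed no call of the 10 named members. Over all mosquito probe sets the block gave 3168, 2262, 1238 and 447 calls in place of 3169, 2252, 1230 and 440. With quantile normalization the hemocyte difference over one-round carcasses was 1.78 at Ag.2R.721.0_CDS_s_at, 2.34 at Ag.2L.3699.0_at, 2.00 at Ag.2R.4656.0_at and 1.83 at Ag.2R.476.0_UTR_at, each still called, and with a pseudocount of 64 Ag.2R.1686.0_CDS_at had 1.75 in hemocytes and a smaller head difference too, both called. No result changed sign in these alternatives where it was called. Signals below background, as 18 members had on some two-round carcass array, limit how far their differences can be read, as does the unknown scaling.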

Other observations

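The array pattern of Ag.3L.936.0_CDS_at, high and low within both hemocytes and heads, recurred among other members. Over the 8 hemocyte and head arrays, 7 other members (9.21% of the list) had a correlation with it above 0.9 in size, 4 positive and 3 negative, against 40 of all mosquito probe sets (0.237%). The pattern was picked after its values were seen, one of the 7 shares its stem, and the points share arrays and labelling, so the correlations are a description. Ag.3L.796.0_CDS_at (correlation 0.96) measured 529, 1170, 27.8 and 17.1 in hemocytes and 4.77, 415, 334 and 575 in heads. It was high where Ag.3L.936.0_CDS_at was high, and in two-round carcasses it measured 37.6, 57.6, 138 and 42.6. In one-round carcasses it measured 91.2, 129, 242 and 128, and its smaller difference over them was only 0.17. Its value on head replicate 1 was below background. Ag.2R.280.0_CDS_a_at (correlation -0.92) ran the other way, with 307, 148, 810 and 799 in hemocytes and 1540, 352, 292 and 294 in heads, and 126, 131, 74.7 and 97.4 in two-round carcasses. Over the 8 carcass arrays these 2 probe sets correlated with it at 0.36 and -0.73, the probe set on its stem at 0.98, and the rest of the 7 at -0.32 to 0.18. Among the rest, Ag.3L.1852.0_CDS_at (correlation 0.95 over hemocytes and heads) ran only from 38.4 to 59.4 on those 8 arrays.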
